A study of Homo sapiens with 2 samples.

Results

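The genes of TGF-beta, activin and BMP signalling were examined on the arrays of AGS.W and AGS.veh cells. The list holds 46 ligands, receptors, SMADs, antagonists and target genes, of the 19775 genes that the array reads with a probe set of their own. A probe set was used only where the platform annotation assigns it to 1 gene. Of the 46 members, 45 had such a probe set. BMPR1A was not analysed here. AGS is a cell line from a gastric adenocarcinoma. AGS.W cells carry a lentivirus with the coding region of WTX and AGS.veh cells carry the control vector, and RNA of each was hybridised to 1 Affymetrix U133 Plus 2.0 array. Both lines are stable lines; for such lines the methods describe selection with puromycin, and the promoter that drives WTX is not given in the sources used here. Neither line was replicated, which leaves no p-value or error to give, and each comparison sets 1 culture against another. In such bulk RNA, fewer cells that express a gene and less RNA per cell cannot be told apart.

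Ligands of this family bind a pair of type I and type II receptor kinases, and the type I receptor then phosphorylates receptor SMADs. TGF-beta, activin and nodal act mainly through SMAD2 and SMAD3, and BMPs through SMAD1, SMAD5 and SMAD9, in each case together with SMAD4. In the normal stomach TGF-beta restrains epithelial growth, and BMP signals take part in the differentiation of gastric glands.

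Values are log2 signals, so a difference of 1 is 2-fold, and they compare a gene between the lines but not 1 gene with another. The arrays were alike in scale, with medians over 54613 probe sets of 4.02 in AGS.W against 4.03 in AGS.veh. Each gene was represented by its brightest probe set on average, and it passed the signal filter where it reached the median of at least 1 array. WTX (AMER1) had log2 signals of 3.70 in AGS.W against 3.86 in AGS.veh on its single probe set, both under the median. Whether this probe set lies in the coding region of the vector was not determined, so it does not check the labels. For its overexpressing lines, AGS.W among them, the paper refers to a Western blot of WTX protein. The extraction text of the labels names a brain region, whereas the other labels and the methods name AGS cells. Of 10 markers of gastric epithelium 8 passed the filter, among them KRT18 at 10.87 in AGS.W against 11.17 in AGS.veh, while KRT19 and CDH17 did not. Of 11 brain markers 6 passed, namely MBP, GRIN1, SLC17A7, MOG, RBFOX3 and SNAP25, with MBP at 6.10 in AGS.W against 6.19 in AGS.veh. GFAP, S100B, AQP4, SYT1 and NEFL lay under the median on both arrays. Of 7 fibroblast markers 3 passed, namely COL1A1, PDGFRB and DCN, and COL1A2, COL3A1, LUM and POSTN did not. Of 3 blood cell markers 2 passed, and of 3 endothelial markers 1 did. Past 2-fold were the neuronal SNAP25, at 5.15 in AGS.W compared with 3.57 in AGS.veh, and the epithelial CD24, at 8.06 in AGS.W against 9.20 in AGS.veh. The part of these markers in the results was not tested.

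Among the 45 members on the array, 41 passed the signal filter. Higher in AGS.W by at least 2-fold were the ligand genes INHBE and BMP2, the BMP-responsive SMAD gene SMAD9 and NOG, which encodes the BMP antagonist noggin. Lower by at least 2-fold were TGFB2, a TGF-beta ligand, and TGFBR2, the type II receptor for TGF-beta. These 4 higher members are 9.76% of the 41, against 1.83% of all 12811 genes above the filter. The 2 lower members are 4.88%, against 1.94% of all genes. The members were chosen with earlier results of these data known, so these shares are no test of an excess. The remaining 35 members differed by less than 2-fold. In all, 15 members were higher, 24 lower and 2 equal on both arrays, while of all 12811 genes 5850 were higher, 6466 lower and 495 equal. The median difference was -0.11 over members and -0.01 over all genes. The quartiles of the differences were -0.37 and 0.13 for members and -0.24 and 0.20 for all genes. INHBE, SMAD9 and NOG lay under the array median in AGS.veh, where signal may be background. Of the 37 members that reached the median of both arrays, 1 was 2-fold higher and 2 were 2-fold lower, and over all genes measured in this way the shares were 1.70% and 1.62%.

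**Figure D1:**
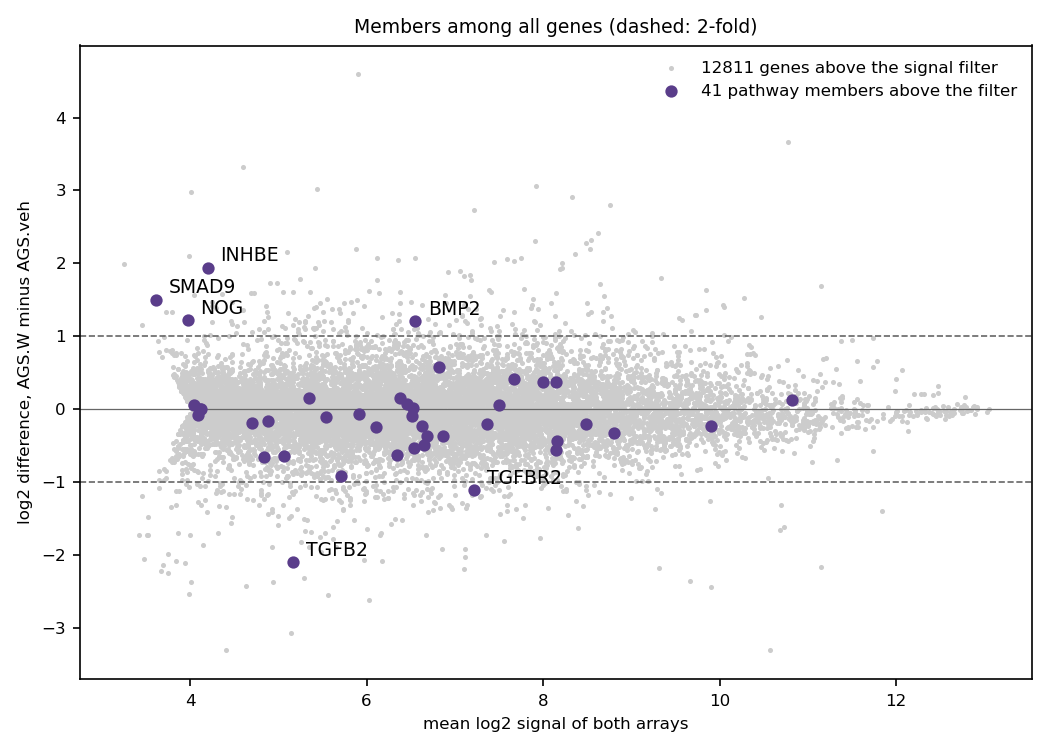
Difference in log2 signal, AGS.W minus AGS.veh (vertical axis), against the mean log2 signal of both arrays (horizontal axis) for 12811 genes above the signal filter (grey) and 41 pathway members (purple), with dashed lines at 2-fold. INHBE, SMAD9 and NOG stand at the dim end above the upper line, BMP2 stands above it at a higher signal, and TGFB2 and TGFBR2 lie under the lower line.

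Of the 6 members at least 2-fold apart, the RefSeq promoter table of GRCh38.p14 holds TGFB2, TGFBR2 and SMAD9. INHBE, BMP1, BMP2, BMP3, BMP7 and NOG have no entry there, and 40 of the 46 members do. The 250 bases before each start are shown because these are the promoters of the lower ligand and its receptor gene and of the higher SMAD gene. They lie at chr1:218345086-218345335 on the plus strand for TGFB2, chr3:30606106-30606355 on the plus strand for TGFBR2 and chr13:36920239-36920488 on the minus strand for SMAD9. Capitals mark the SMAD element CAGAC or its complement GTCTG, the core GGCGCC of BMP SMAD elements, and TATAAA or its complement TTTATA, found by exact letters.
TGFB2: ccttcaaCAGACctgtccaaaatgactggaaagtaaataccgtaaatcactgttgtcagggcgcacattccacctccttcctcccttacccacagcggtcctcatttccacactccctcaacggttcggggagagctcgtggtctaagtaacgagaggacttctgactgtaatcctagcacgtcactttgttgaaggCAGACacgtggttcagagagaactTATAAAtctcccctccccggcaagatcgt
TGFBR2: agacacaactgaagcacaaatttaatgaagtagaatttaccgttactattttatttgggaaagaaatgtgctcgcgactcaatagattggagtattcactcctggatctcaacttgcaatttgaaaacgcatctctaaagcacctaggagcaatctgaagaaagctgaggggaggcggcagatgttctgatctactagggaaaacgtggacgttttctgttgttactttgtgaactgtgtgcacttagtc
SMAD9: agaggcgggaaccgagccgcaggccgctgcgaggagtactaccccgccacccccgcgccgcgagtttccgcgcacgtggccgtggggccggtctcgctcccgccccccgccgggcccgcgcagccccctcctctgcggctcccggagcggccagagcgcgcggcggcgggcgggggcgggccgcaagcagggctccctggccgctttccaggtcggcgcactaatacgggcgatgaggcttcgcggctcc

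The upstream sequence of TGFB2 held CAGAC at 243 and 53 bases before the start and TATAAA at 29 bases before it. That of TGFBR2 held none of these letters, and that of SMAD9 held none before the start and a GTCTG just after it. Bases G and C made up 50.4% of the sequence for TGFB2, 40.8% for TGFBR2 and 78.4% for SMAD9, where the median was 68.2% over the 40 members and 58.0% over 27305 promoters. Windows that also included the 50 bases after the start held CAGAC or GTCTG in 19 of 40 members and 45.0% of all promoters, GGCGCC in 13 of 40 members and 19.0%, and TATAAA or TTTATA in 7 of 40 members and 12.0%. Such letters are a description of the windows and show no binding.

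On the brightest probe set of each gene, TGFB2 was the member furthest apart, whereas as means over all probe sets TGFB2 had -1.50 and INHBE had 1.94. The brightest probe set of TGFB2 had 4.12 in AGS.W against 6.22 in AGS.veh, a difference of -2.10 or 4.30-fold lower. Its AGS.W signal was close to the array median of 4.02. Of the 12811 genes, 20 had a difference as low, TGFB2 among them. A second probe set above the filter had 1.65 in AGS.W against 4.77 in AGS.veh, where the AGS.W value lay under the median. Of 3 probe sets under the filter, 2 were lower, at -1.45 and -0.84 and the last had the same value on both arrays. Of the 5 probe sets of TGFB2, 4 were thus lower in AGS.W. The other TGF-beta ligand genes were close on both arrays. TGFB1, the most widely expressed isoform in human tissues, had 5.49 in AGS.W against 5.60 in AGS.veh, a difference of -0.11. TGFB3 had 4.60 in AGS.W against 4.80 in AGS.veh.

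Activin and inhibin subunits pair into dimers, of which those of INHBA and INHBB are the classical activins. INHBE encodes the beta-E subunit, which is known mainly from the liver. INHBE had 5.17 in AGS.W against 3.23 in AGS.veh, a difference of 1.94. The AGS.veh signal lay under the median, and with that median in its place INHBE was 2.21-fold higher. This rests on a single probe set. INHBA, a gene that TGF-beta can induce, had 4.51 in AGS.W against 5.16 in AGS.veh, a difference of -0.65. Its other probe sets lay under the filter, with differences of -0.92 and -0.18. INHBB had 6.50 in AGS.W against 6.88 in AGS.veh. INHBC, which neighbours INHBE in the genome, had 6.51 in AGS.W against 6.75 in AGS.veh; its difference of -0.23 was opposite in sign to that of INHBE. The inhibin alpha subunit INHA lay under the filter with 3.48 on both arrays.

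Among the BMP, GDF and nodal ligand genes, BMP2 was higher on both of its probe sets. It had 7.16 in AGS.W against 5.95 in AGS.veh on the brighter one, and 6.96 in AGS.W against 5.66 in AGS.veh on the other. These are differences of 1.21 and 1.29, or 2.31-fold and 2.45-fold, and all of these signals were above the median. BMP6, a ligand that in the liver controls iron balance through hepcidin, had 7.10 in AGS.W against 6.53 in AGS.veh, a difference of 0.58 and so under 2-fold. Its other probe sets were under the filter, at -0.20 and 0.22. The remaining ligands of this class stood between -0.25 and 0.15. BMP4 had 4.05 in AGS.W against 4.13 in AGS.veh. BMP7, a ligand needed for kidney development, had 5.42 in AGS.W against 5.27 in AGS.veh. BMP5 had 4.12 on both arrays. NODAL, which patterns the early embryo, had 4.07 in AGS.W against 4.02 in AGS.veh, values close to the array median. GDF11, which signals through activin receptors, had 5.98 in AGS.W compared with 6.23 in AGS.veh, and of its 4 probe sets above the filter 3 were lower and 1 was higher. BMP3 was under the filter, at 2.94 in AGS.W against 3.18 in AGS.veh. BMP1 is a metalloprotease that cleaves procollagens and chordin, not a ligand of the family. It had 6.27 in AGS.W against 6.81 in AGS.veh, a difference of -0.54, and 5 of its 6 probe sets above the filter were lower.

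**Figure D2:**
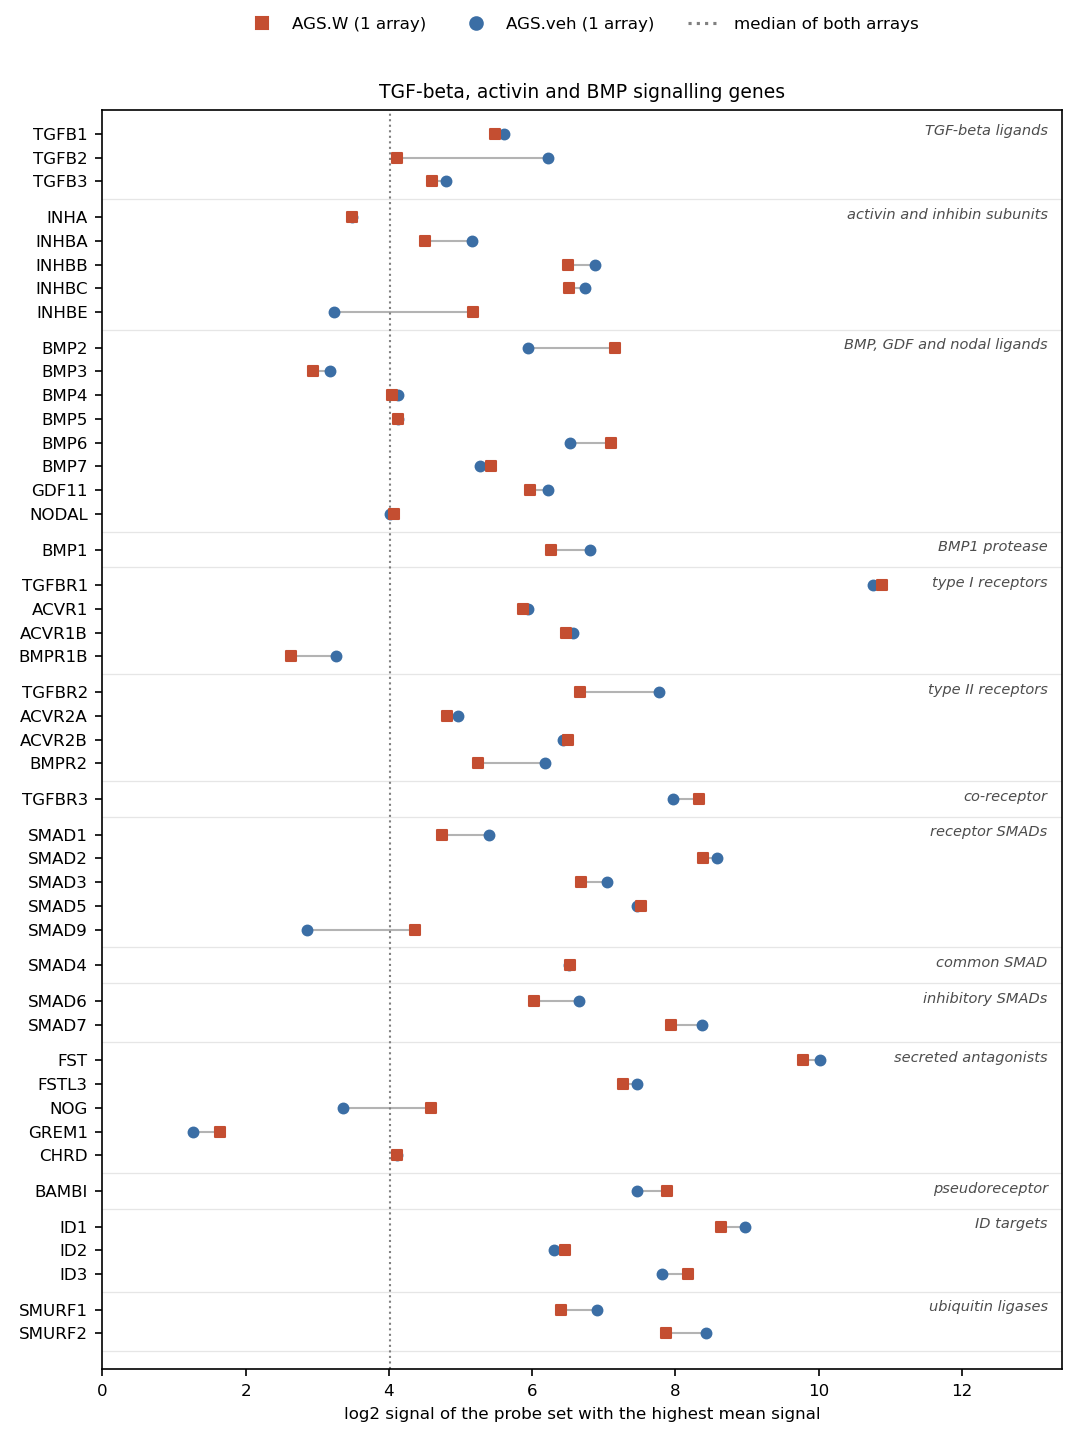
Log2 signal (horizontal axis) of 45 members in AGS.W (squares) and AGS.veh (circles), 1 array each, on the brightest probe set of each, grouped by role, with the array median as a dotted line. TGFB2 has 4.12 in AGS.W compared with 6.22 in AGS.veh, and for INHBE, SMAD9 and NOG the AGS.veh circle lies left of the dotted line.

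Receptor genes were mostly close on both arrays, and those that differed most were type II receptors. TGFBR2 had 6.67 in AGS.W against 7.78 in AGS.veh, a difference of -1.11 or 2.16-fold lower. A dimmer probe set, under the filter, had 3.53 in AGS.W compared with 3.77 in AGS.veh, and as the mean of both TGFBR2 was lower, at -0.67 and under 2-fold. BMPR2, the type II receptor for BMPs, had 5.25 in AGS.W against 6.18 in AGS.veh, a difference of -0.92 just short of 2-fold. Its other probe sets above the filter were also lower, at -0.78, -0.10 and -0.38, and those under it had 0.11 and -0.71. The activin type II receptors were close, at 4.81 in AGS.W against 4.97 in AGS.veh for ACVR2A, and 6.50 in AGS.W against 6.43 in AGS.veh for ACVR2B. Among type I receptors, TGFBR1, the partner of TGFBR2, had 10.88 in AGS.W against 10.76 in AGS.veh. A dimmer probe set of TGFBR1 had 9.24 in AGS.W against 8.54 in AGS.veh, so its probe sets differed by between -0.07 and 0.70. ACVR1, a type I receptor for BMPs, had 5.87 in AGS.W against 5.95 in AGS.veh. ACVR1B, that for activin, had 6.47 in AGS.W against 6.57 in AGS.veh. BMPR1B stayed under the filter on each of its 3 probe sets, with differences between -0.99 and 0.00. TGFBR3, or betaglycan, a co-receptor that presents TGF-beta2 to the signalling receptors, had 8.33 in AGS.W compared with 7.96 in AGS.veh, and both of its probe sets were higher, by 0.37 and 0.29.

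SMAD genes differed in both directions. SMAD9 had 4.36 in AGS.W against 2.86 in AGS.veh, 2.83-fold higher, and its second probe set, under the filter, had 2.71 in AGS.W against 3.31 in AGS.veh. With the AGS.veh signal set to the array median the difference of SMAD9 was 0.34, and as the mean of its probe sets it was 0.45, so its size was not settled. The other BMP-responsive SMAD genes were SMAD1, at 4.74 in AGS.W compared with 5.39 in AGS.veh, and SMAD5, at 7.53 in AGS.W against 7.47 in AGS.veh. SMAD1 was lower on both probe sets above the filter, at -0.65 and -0.48, whereas the 5 probe sets of SMAD5 were higher by between 0.06 and 0.35. SMAD2 had 8.38 in AGS.W against 8.58 in AGS.veh on its brightest probe set. Its other 4 probe sets above the filter were higher. One of these had 7.75 in AGS.W against 6.67 in AGS.veh, a difference of 1.08, the rest had 0.40, 0.10 and 0.38, and a dim one had -0.14. Its probe sets thus disagreed in direction. SMAD3, the partner of SMAD2, had 6.69 in AGS.W compared with 7.05 in AGS.veh, and all 3 of its probe sets above the filter were lower, at -0.37, -0.66 and -0.06. The common SMAD4 had 6.53 in AGS.W against 6.52 in AGS.veh, with 0.35 and 0.52 on 2 further probe sets. Both inhibitory SMAD genes, which are induced by the pathway and hold it back, were lower by less than 2-fold. SMAD6 had 6.03 in AGS.W compared with 6.66 in AGS.veh, and SMAD7 had 7.94 in AGS.W against 8.38 in AGS.veh. For SMAD6 this rests on 1 probe set, since those under the filter lay between -0.37 and 0.11.

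Of the antagonists, NOG stood apart from the others. Its single probe set had 4.59 in AGS.W against 3.36 in AGS.veh, a difference of 1.22, and with the AGS.veh signal set to the median the difference was 0.56. Follistatin (FST), which binds activins, had 9.78 in AGS.W compared with 10.02 in AGS.veh, and all 3 of its probe sets were lower, at -0.24, -0.21 and -0.76. The related FSTL3 had 7.26 in AGS.W against 7.47 in AGS.veh. Chordin (CHRD), a BMP antagonist like noggin, had 4.12 on both arrays and 0.30 on a second probe set. GREM1 lay under the filter, at 1.64 in AGS.W against 1.26 in AGS.veh. BAMBI, a receptor-like protein without a kinase domain that dampens TGF-beta signals, had 7.88 in AGS.W against 7.47 in AGS.veh. The ubiquitin ligase genes SMURF1 and SMURF2, whose products mark SMADs and receptors for degradation, were both lower. SMURF1 had 6.40 in AGS.W against 6.90 in AGS.veh, a difference of -0.50, with between -0.15 and 0.11 on its other probe sets. SMURF2 had 7.86 in AGS.W compared with 8.43 in AGS.veh, and its 4 probe sets were lower, between -0.64 and -0.24.

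ID1, ID2 and ID3 encode inhibitors of helix-loop-helix factors and are widely used as readouts of BMP signalling. They did not move together. ID1 had 8.64 in AGS.W against 8.97 in AGS.veh. ID2 had 6.46 in AGS.W compared with 6.31 in AGS.veh, and ID3 had 8.18 in AGS.W against 7.81 in AGS.veh. None differed by 2-fold, and the differences were -0.33 for ID1, 0.16 for ID2 and 0.37 for ID3.

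**Figure D3:**
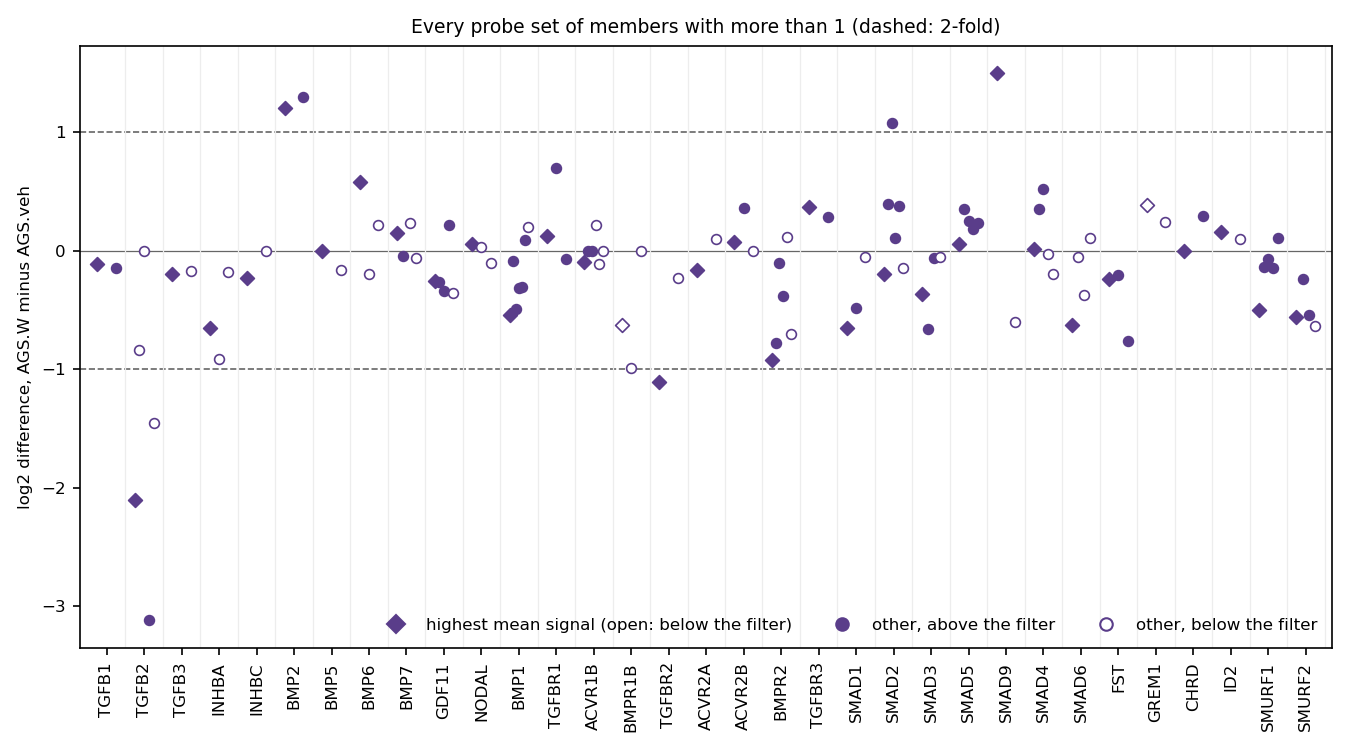
Difference in log2 signal, AGS.W minus AGS.veh (vertical axis), on every probe set of the members that have more than 1, with diamonds for the highest mean signal, filled symbols above the signal filter and dashed lines at 2-fold. Both probe sets of BMP2 lie above the upper line and 4 of 5 of TGFB2 lie below 0, whereas those of SMAD2 and SMAD9 lie on either side of 0.

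The members are read by 126 probe sets, of which 84 passed the filter. Of these, 6 were higher and 3 lower by 2-fold or more, while over all 28504 probe sets above the filter the shares were 1.90% and 1.89%. Of 20 members with several such probe sets, 5 were higher on all, 7 were lower on all and 8 were neither. Among these 8, ACVR1B and CHRD had equal values and no opposite directions. The same was not counted over all genes. BMP2 and TGFB2 were the members with more than 1 probe set past 2-fold.

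Other genes of the pathway were taken from a list of 89, of which 79 had a probe set of their own and 60 passed the filter. The list was chosen with earlier results of these data known, so counts of it or its classes beside all genes are no test. By 2-fold or more, 0 were higher and 3 lower, beside 1.83% and 1.94% of all genes. In all 18 were higher, 40 lower and 2 equal, beside 5850, 6466 and 495 of all 12811 genes, and their median was -0.11, beside -0.01 over all genes. The lower genes were THBS1, TGFBI and DLX2. Thrombospondin 1 (THBS1), which can release active TGF-beta from its latent form, had 5.29 in AGS.W against 7.02 in AGS.veh, a difference of -1.73. Its 3 other probe sets above the filter had -1.31, -1.90 and -0.03. Those under the filter had -0.38, 0.33 and 0, and the mean over all probe sets of THBS1 was -0.72, under 2-fold. TGFBI, a matrix protein named for its induction by TGF-beta, had 7.57 in AGS.W against 9.21 in AGS.veh on its only probe set, or 3.12-fold lower. The homeobox gene DLX2 had 2.62 in AGS.W compared with 4.77 in AGS.veh, and with the median in place of the AGS.W signal the difference was -0.75. Its other probe set, under the filter, had -0.16.

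Within the known target genes, 13 of 19 were lower and 6 were higher, where 6466 of all 12811 genes were lower. Besides TGFBI and DLX2, SNAI2, a repressor linked to epithelial-mesenchymal transition, had 7.36 in AGS.W against 8.20 in AGS.veh. CDKN2B, a cell cycle inhibitor that TGF-beta induces, had 6.61 in AGS.W against 7.36 in AGS.veh on one probe set and was lower on the other by less, at -0.26. These genes were lower by less than 2-fold. MSX2, a homeobox target of BMP, had 4.36 in AGS.W against 5.05 in AGS.veh, but its other probe set above the filter was higher by 0.20. The growth factor CCN2 had 7.56 in AGS.W against 7.94 in AGS.veh. COL1A1 had 7.89 in AGS.W against 6.95 in AGS.veh, a difference of 0.94, with between -0.34 and 0.62 on its other probe sets above the filter.

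Among SMAD partners and regulators, 12 of 17 were lower, 4 higher and 1 equal, with none past 2-fold on its brightest probe set, and here too 6466 of all 12811 genes were lower. PMEPA1, a target gene of TGF-beta that retains SMADs from the receptor, had 9.57 in AGS.W against 10.32 in AGS.veh. A further probe set of PMEPA1 had 5.79 in AGS.W against 8.20 in AGS.veh, a difference of -2.41, and the other had -0.73, so all 3 were lower. The co-repressor genes SKI and SKIL had differences of -0.65 and -0.39, and all 4 probe sets of SKIL above the filter were lower, between -0.62 and -0.39, whereas those of SKI lay between -0.65 and 0.17. FKBP1A, which binds type I receptors, had -0.45, and all 4 of its probe sets were lower. ZFYVE16, an endosomal protein related to the SMAD anchor ZFYVE9, had -0.37, but its probe sets above the filter reached 0.81.

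Of 10 genes of latency and activation 7 were lower and 3 were higher, against the same 6466 lower of 12811 over the table. Besides THBS1, the integrin genes ITGB8 and ITGAV, whose products together activate latent TGF-beta, had differences of -0.92 and -0.63. ITGB8 had 4.41 in AGS.W compared with 5.33 in AGS.veh, and ITGAV had 7.50 in AGS.W against 8.13 in AGS.veh. The other 4 probe sets of ITGB8, under the filter, went both ways, at -0.39, 0.28, -0.49 and 0.18, and the mean over its probe sets was -0.27. Fibrillin 1 (FBN1), which anchors latent complexes in the matrix, had 7.98 in AGS.W against 8.59 in AGS.veh. FURIN, a protease that processes TGF-beta precursors, had -0.38, and LTBP2, a latent TGF-beta binding protein by name, had -0.34. Only 5 of 13 further ligands passed the filter, and GDF15 was the one with a difference outside -0.08 to 0.00, having 8.77 in AGS.W against 8.17 in AGS.veh. Its other probe sets, under the filter, had 0.10 and -0.11, and the mean of the 3 was 0.20. Endoglin (ENG), a co-receptor, had 6.19 in AGS.W compared with 6.89 in AGS.veh, and the type I receptor ACVRL1 had 4.88 in AGS.W against 4.35 in AGS.veh. The other probe set of ENG above the filter had -0.07, and that of ACVRL1, under it, had 0.14. Of 4 further antagonists, FSTL1 had -0.36 and TMEFF2 had 0.48.

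**Figure D4:**
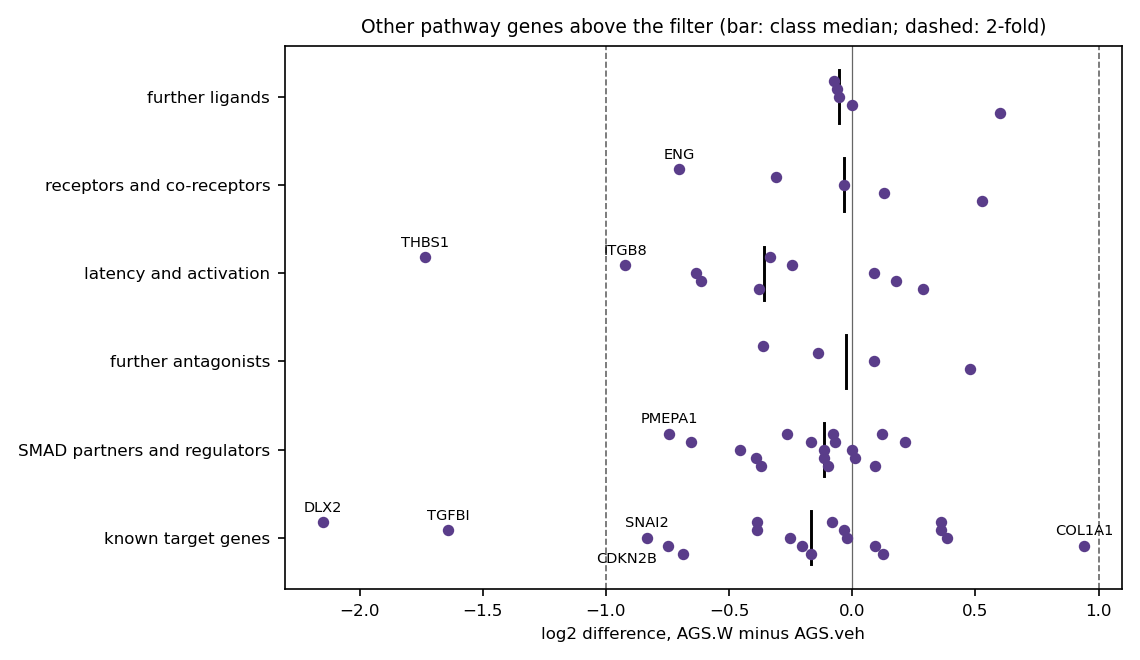
Difference in log2 signal, AGS.W minus AGS.veh (horizontal axis), of 60 other pathway genes above the signal filter in 6 classes, with a bar at each class median and dashed lines at 2-fold. Points left of 0 are lower in AGS.W, and THBS1, TGFBI and DLX2 lie left of the 2-fold line, with none right of the upper one.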

How the data were processed

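AGS.W and AGS.veh RNA was hybridised to Affymetrix U133 Plus 2.0 arrays, 1 for each line. The authors deposited 1 log2 signal for every probe set; per the labels RMA and MAS5 were used, without their roles, and nothing was normalized again. Control probe sets (62) were left out. Platform annotation of 2016 gave 41091 probe sets 1 gene, 1801 several and left 11721 unnamed here, and symbols were updated through RefSeq gene identifiers. The methods' threshold of 2-fold was used, and their FDR could not be computed without replicates. Members are all accounted for, those past 2-fold on every probe set, and of the other pathway genes those past 2-fold and up to 5 more per class. The members and lists were chosen with earlier results of these data known. Promoters came from RefSeq of GRCh38.p14, and proteins were not analysed here. Counting was tested on simulated arrays with little noise and with large changes in bright genes alone. This does not test calls on dim genes or changes near 2-fold. The closing section gives the alternatives, which changed scaling (median centring, quantiles, lowess of span 0.3), signal filter, fold threshold and choice of probe sets. Software was matplotlib 3.10.9, pandas 2.3.3, numpy 2.4.6 and statsmodels 0.14.6 under Python 3.11.15. The number of arrays limits the precision.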

Additional observations from a re-analysis of the deposited data

How the results depend on the processing

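No paired analysis was possible because only 1 array was made from either line, which also leaves no replicate to omit. The move of a gene was read beside the robust spread among genes of like signal. By this, 308 of 322 alternative values of the 41 members stayed within it and 14 moved. No member past 2-fold changed direction. Scaling and symbols without the update moved none, but the arrays were already alike in scale, so these could move little. As means of all probe sets 6 of 41 values moved, and as means of those above the filter 3 of 41. With signals under the median set to it 3 of 41 moved, and with some types of probe set left out 2 of 35. In all, 6 values of 5 members changed sign. TGFB2 had -1.50 as the mean of all probe sets and -2.61 as the mean of those above the filter. At 3-fold, 1 member was higher (INHBE) and 1 lower (TGFB2), of their probe sets 1 was higher and 2 were lower, and over all genes 56 were higher and 57 lower. At 1.5-fold, 4 members and 7 of their probe sets were higher, and 6 members and 10 of their probe sets were lower. Of the other pathway genes 2 were higher and 12 lower, and over all genes 851 were higher and 944 lower. At 3-fold and 1.5-fold the probe sets of all genes were not counted. With a signal at the median on both arrays, 1 of 37 members was higher (BMP2) and 2 were lower, beside 206 and 197 of 12151 genes. At the upper quartile on 1 array, 1 of 28 members was higher (BMP2) and 2 were lower, beside 193 and 176 of 8260 genes. The median of these members was -0.22. As means of all probe sets, 3 of the 34 members that passed were higher and 1 lower, and of 11273 genes 143 were higher and 136 lower. Counting a gene by any of its probe sets above the filter gave 5 higher and 2 lower members, and 363 higher and 374 lower genes in all. The causes were not tested. Signals near or under the array median limit what the arrays can show for INHBE, SMAD9 and NOG in AGS.veh and for TGFB2 in AGS.W.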

Other observations

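Of the 126 probe sets of the members, 10 had the same value on both arrays, and 6 of these lay under the signal filter. By the brightest probe set, 2 of 41 members and 495 of all 12811 genes above the filter were equal. Of the 42 member probe sets under the filter, 1 was at least 2-fold apart, a probe set of TGFB2 at 1.75 in AGS.W against 3.21 in AGS.veh. Neither count was made over all probe sets of the array, so whether either is particular to the members was not determined. Among genes with signals like those of SMAD9 and NOG, the middle 95% of differences lay between -1.33 and 0.78 (637 genes), and for INHBE they lay between -0.71 and 0.65 (644 genes). For TGFB2 these bounds were -1.06 and 1.03, for BMP2 -0.87 and 0.87, and for TGFBR2 -0.90 and 0.98. These bounds describe genes of the same 2 arrays and not replicate error, and they are no test of members that were singled out for a difference of at least 2-fold.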
